A study of Mus musculus with 24 samples.

Results

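Ephrins, semaphorins and their receptors were followed in embryoid bodies (EBs), free-floating aggregates in which mouse embryonic stem cells begin to differentiate. Of 52 genes named by family, 51 were described, because Ephb2 had no probe set annotated to it alone; they were 8 ephrins, 12 Eph receptors, 20 semaphorins, 9 plexins and 2 neuropilins, among 19938 genes with a probe set of their own. Where a gene had several such probe sets, the one with the highest mean was used, which applied to 3 members (Ephb1, Sema4d and Sema6b). The rule names genes by family and uses no measured value, though it was set with earlier results of these data known.

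The EBs came from 46C, a mouse embryonic stem cell line that carries a fluorescent reporter in its Sox1 gene. Untreated EBs and EBs given FK506 at 100 ng/ml plus cyclosporin A at 1 ug/ml, present between days 3 and 8, were collected on days 4, 6, 8 and 12, with 3 arrays in each of the 8 groups. Both drugs were given together, so their separate effects cannot be told apart, and the day 12 EBs had been without them since day 8. All groups are of 1 cell line, were cultured with LIF at the start and were plated on day 7, and all received serum-free medium from day 8. Total RNA of whole EBs was measured, so fewer cells of a type and less RNA per cell cannot be told apart.

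FK506 and cyclosporin A block calcineurin, a phosphatase whose best known substrates are the NFAT transcription factors. Ephrins are membrane-bound ligands that signal on cell contact: A-type ephrins are anchored by a lipid and mostly bind EphA receptors, and B-type ephrins span the membrane and mostly bind EphB receptors and EphA4, and signals run into both cells. Class 3 semaphorins are secreted and mostly act through a neuropilin, which binds the ligand, and an A-type plexin, which carries the signal. Sema3e is an exception, as a ligand of Plxnd1. Most semaphorins of the other classes are membrane-bound and bind plexins directly. Both systems steer axons, neural crest cells and growing vessels in the embryo, and neuropilins are also co-receptors for vascular endothelial growth factors.

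Promoter windows in the RefSeq promoter table (build GRCm38.p6) run from 250 bases before to 50 bases after a start listed there. They are shown for the 4 members that were higher in treated EBs on day 6 and have a window. Capitals mark GGAAA, the core letters that NFAT factors bind, on either strand; GGCGCC, a GC-rich element described for BMP-Smad complexes, was searched the same way. The windows lie at chr8:128358823-128359122 on the plus strand (Nrp1), chr1:62703067-62703366 on the plus strand (Nrp2), chrX:99135811-99136110 on the plus strand (Efnb1) and chr1:77515039-77515338 on the minus strand (Epha4), and are written 5′ to 3′ on the gene's strand.
Nrp1: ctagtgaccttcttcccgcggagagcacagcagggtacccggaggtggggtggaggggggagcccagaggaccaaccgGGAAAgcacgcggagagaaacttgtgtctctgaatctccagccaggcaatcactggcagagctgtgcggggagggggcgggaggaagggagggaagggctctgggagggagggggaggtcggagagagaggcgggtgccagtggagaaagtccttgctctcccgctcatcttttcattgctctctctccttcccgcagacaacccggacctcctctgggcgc
Nrp2: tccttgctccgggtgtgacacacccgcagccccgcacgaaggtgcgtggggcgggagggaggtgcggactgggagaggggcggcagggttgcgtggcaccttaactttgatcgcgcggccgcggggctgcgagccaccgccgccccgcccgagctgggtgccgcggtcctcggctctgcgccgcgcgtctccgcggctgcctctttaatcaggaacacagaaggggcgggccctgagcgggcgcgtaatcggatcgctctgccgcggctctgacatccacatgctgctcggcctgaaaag
Efnb1: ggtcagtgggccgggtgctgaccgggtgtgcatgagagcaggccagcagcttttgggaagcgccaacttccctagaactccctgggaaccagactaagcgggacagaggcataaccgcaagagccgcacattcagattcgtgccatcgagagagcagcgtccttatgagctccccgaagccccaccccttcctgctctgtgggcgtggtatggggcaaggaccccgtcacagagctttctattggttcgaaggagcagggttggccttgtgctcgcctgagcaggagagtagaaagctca
Epha4: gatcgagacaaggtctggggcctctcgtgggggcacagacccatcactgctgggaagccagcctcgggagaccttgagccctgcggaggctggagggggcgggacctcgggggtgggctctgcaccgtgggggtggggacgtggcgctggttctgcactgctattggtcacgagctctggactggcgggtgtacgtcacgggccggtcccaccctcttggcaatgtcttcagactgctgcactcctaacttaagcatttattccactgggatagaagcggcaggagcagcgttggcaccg

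The Nrp1 window holds GGAAA 1 time, and the other 3 windows hold neither motif. That Nrp1 window lies wholly downstream of the annotated gene start at chr8:128358591. GGAAA was in 61.3% of all 32851 windows and in 31 of the 59 windows of the 45 members that matched the table (52.5%). GGCGCC was in 11.9% of all windows and in 13 of the 59 member windows (22.0%). These are matches of letters and say nothing of binding.

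All values are log2 signals, so a difference of 1 is a doubling, and levels of different genes are not compared because each probe set has its own response. Array medians over all probe sets ran from 7.80 to 7.88. At day 4 the untreated EBs had Pou5f1 at 12.75 ± 0.07 and Nanog at 12.63 ± 0.09 (mean ± SD, n = 3), both markers of pluripotent cells, and by day 12 these stood at 8.04 ± 0.34 and 9.29 ± 0.31. Markers of other cell types moved with treatment. On day 6, 8 of 10 lateral plate mesoderm markers were higher, and their mean ran from 8.03 to 8.62 on untreated and from 9.42 to 10.34 on treated arrays. Also higher were 3 of 10 primitive streak, 1 of 12 mesenchyme, 1 of 10 endothelial and 1 of 9 blood markers. Of the epithelium markers, 1 of 9 was lower. On day 8, 9 of 12 mesenchyme and 5 of 10 endothelial markers were higher and 7 of 12 neural progenitor markers lower. That day 4 of 10 lateral plate markers were higher. Lower were 3 of 9 epithelium, 2 of 10 pluripotent, 2 of 10 primitive streak and 2 of 12 neuron markers. On day 12 all 12 neuron markers were lower, with a mean of 9.43 to 9.82 on untreated and 8.36 to 8.84 on treated arrays, 8 of 12 neural progenitor markers were lower and 1 higher, and 6 of 12 mesenchyme markers were higher. Of the other lists, 5 of 10 visceral endoderm markers were higher on day 8, and on day 12 6 of 10 pluripotent markers were higher (Pou5f1 at 9.20 ± 0.16 in treated EBs) and 6 of 10 visceral endoderm markers higher and 1 lower. Lateral plate had 3 of 10 markers higher and 1 lower on day 12, endothelium 1 of 10 higher and epithelium 1 of 9 lower. Of all genes, 1.26%, 4.86% and 7.49% were higher and 0.577%, 4.08% and 10.4% lower on days 6, 8 and 12. The part of these cell types in the results below was not tested.

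A gene was called where limma's moderated test gave a Benjamini-Hochberg adjusted p under 0.05 over all 19938 genes. By limma's F test over the 8 groups, 48 of 51 members differed among groups, against 79.1% of all genes, and Epha6, Plxnb3 and Sema3g did not pass. The group means spanned 5.55 log2 units for Nrp1, 4.25 for Epha3, 3.53 for Sema3a, 3.44 for Sema6d, 3.05 for Epha1 and 3.01 for Plxna4.

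On day 4, 1 day after the drugs were added, limma called 0 of 51 members, and 0.00502% of all genes (1 gene) were called. At an unadjusted p under 0.05 there was 1 member, Epha4, with a difference of 0.24 (adjusted p = 0.862), and 1128 of all 19938 genes.

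On day 6, 5 members were higher in treated EBs, where 1.26% of all genes were, and 0 were lower, where 0.577% of all genes were; the median difference was -0.01 over the members and 0.00 over all genes. At an unadjusted p under 0.05, 10 members were higher and 7 lower. The 5 members were both neuropilins, Plxna4, Efnb1 and Epha4. The count of 5 became 2 without untreated replicate 2 or without treated replicate 1, and 3 without treated replicate 3. With the replicate number as a block, 7 members were higher and 3 lower, and the share of all genes called in either direction went from 1.84% to 3.62%.

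On day 8, 5 members were higher (4.86% of all genes) and 8 were lower (4.08% of all genes), with a median difference of -0.03 over the members and -0.04 over all genes. Of the 8 lower members, 6 were semaphorins and the other two were EphA receptors. This day rested most on single arrays: the 5 and 8 became 1 and 1 when untreated replicate 2 was left out, and 5 and 5 when untreated replicate 3 was. Leaving out treated replicate 1, 2 or 3 gave 1 and 3, 10 and 9, and 4 and 3. Fitted on the 6 day 8 arrays alone, limma called 0 members and 0.0% of all genes, with 9 members higher and 13 lower at an unadjusted p under 0.05. With the replicate number as a block, 8 members were higher and 11 lower, and the share of all genes called in either direction went from 8.93% to 14.2%.

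On day 12, 4 members were higher (7.49% of all genes) and 8 were lower (10.4% of all genes), with a median difference of 0.04 over the members and 0.02 over all genes. These counts are 7.8% and 15.7% of the members, so the share called higher lay near its background. With genes below the 40th percentile of level left out, 4 of 42 members were higher and 6 lower. In that setting 26.5% of the genes kept were called in either direction, a share that the members did not exceed. The 4 higher members became 1 without untreated replicate 2, treated replicate 1 or treated replicate 3, 2 with untreated replicate 3 left out and 9 with treated replicate 2 left out, and the 8 lower members became 5 without treated replicate 3. With the replicate number as a block, 9 were higher and 11 lower, and the share of all genes called in either direction went from 17.9% to 22.1%.

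**Figure D1:**
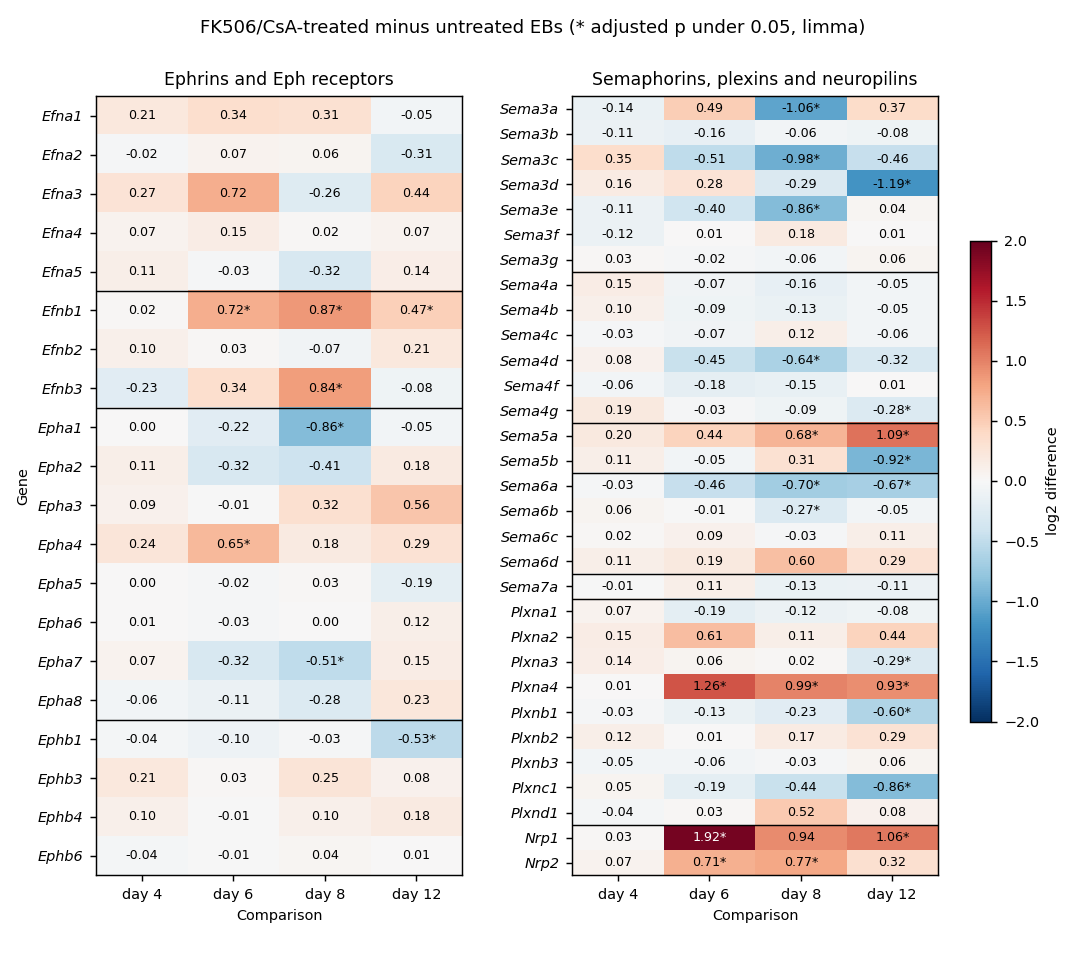
Treated minus untreated log2 difference of group means (3 arrays a group) for the 51 members by family and day, with called members marked. Calls are those of the fit without the replicate block. No member is called on day 4, the called members of day 6 are all higher, and 6 of the 8 called lower on day 8 are semaphorins.

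In untreated EBs more members rose than fell at each step between collection days. From day 4 to day 6, 24 members rose and 5 fell (21.1% and 20.9% of all genes), with a median difference of 0.30 over the members and -0.04 over all genes. From day 6 to day 8, 19 rose and 6 fell (17.8% and 18.3%), with medians of 0.16 and 0.04, and the 6 became 3 without untreated day 6 replicate 2. From day 8 to day 12, 26 rose and 5 fell (18.8% and 19.9%), with medians of 0.28 and -0.06.

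The first step raised all 5 A-type ephrins. Efna5, an axon repellent of the visual map, had 7.54, 7.87 and 8.06 on the day 4 arrays and 9.58, 9.58 and 9.83 on the day 6 arrays, a rise of 1.84 (adjusted p = 9.66e-10). Every day 6 array lay well above every day 4 array. The largest rise was that of Sema6d, a membrane-bound semaphorin known from heart development, from 6.94 ± 0.03 to 9.07 ± 0.47 (2.13, adjusted p = 4.45e-08). Sema3c, a ligand for the neural crest of the outflow tract, rose by 2.12 (adjusted p = 1.05e-07), and Plxna2, a plexin of that same crest, by 1.65 (adjusted p = 5.98e-07). The falls were smaller: Epha2, a receptor of early embryonic and epithelial cells, fell by 0.60 (adjusted p = 0.00102), Sema4b by 0.36 (adjusted p = 0.000444), Sema4a by 0.35 (adjusted p = 0.00172) and Epha8 by 0.33 (adjusted p = 0.00757).

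From day 6 to day 8 the largest rises were in Nrp1, Sema3a, Efnb1 and Nrp2. Nrp1, the neuropilin that binds Sema3a and VEGF-A, stood at 8.92, 7.39 and 8.59 on day 6 and at 11.57, 10.15 and 10.90 on day 8, a rise of 2.58 (adjusted p = 1.32e-05). Both days were spread over more than 1 log2 unit, with replicate 2 lowest each time, yet the days did not overlap. Sema3a, its repulsive ligand, rose by 1.65 (adjusted p = 8.91e-06), Efnb1 by 1.53 (adjusted p = 8.66e-07) and Nrp2, the neuropilin of Sema3f and VEGF-C, by 1.02 (adjusted p = 0.000122). All 3 B-type ephrins rose at this step, Efnb2 by 0.30 and Efnb3 by 0.55, and again at the next. Sema3c fell back by 1.28 (adjusted p = 8.48e-05) and Epha1, an epithelial receptor, fell by 1.08 (adjusted p = 0.00295). Sema4d fell by 0.62 (adjusted p = 0.00158), a call lost when its probe sets were averaged (adjusted p = 0.0685, in a range of 9.39e-05 to 0.0685 over 14 alternatives). Sema3e, a ligand of Plxnd1 on vessels, fell by 0.66 (adjusted p = 0.019). That call was lost without untreated day 6 replicate 2 (0.0625), day 6 replicate 3 (0.0641) or day 8 replicate 1 (0.127) and with quantile normalization (0.0504), in a range of adjusted p from 0.00564 to 0.127.

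From day 8 to day 12, 7 of 9 plexins rose. The largest rise among the members was in Epha3, a receptor of A-type ephrins, which had 6.26, 6.18 and 6.34 on day 8 and 9.82, 9.23 and 9.60 on day 12 (3.29, adjusted p = 1.08e-10). It had stayed between 5.83 and 6.34 on the untreated arrays of all earlier days. Sema3d rose by 2.27 (adjusted p = 2.22e-11), Sema5b by 1.76 (adjusted p = 9.56e-10) and Plxnc1, the receptor of Sema7a, by 1.61 (adjusted p = 5.03e-08). Epha1 fell by 1.91 (adjusted p = 3.58e-06), Epha2 by 1.09 (adjusted p = 8.68e-07) and Sema3e by 0.99 (adjusted p = 0.000681). Sema7a fell by 0.42 (adjusted p = 0.016), a call lost without untreated day 8 replicate 3 (0.0867) or day 12 replicate 1 (0.0762), in a range of 0.00348 to 0.0867.

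**Figure D2:**
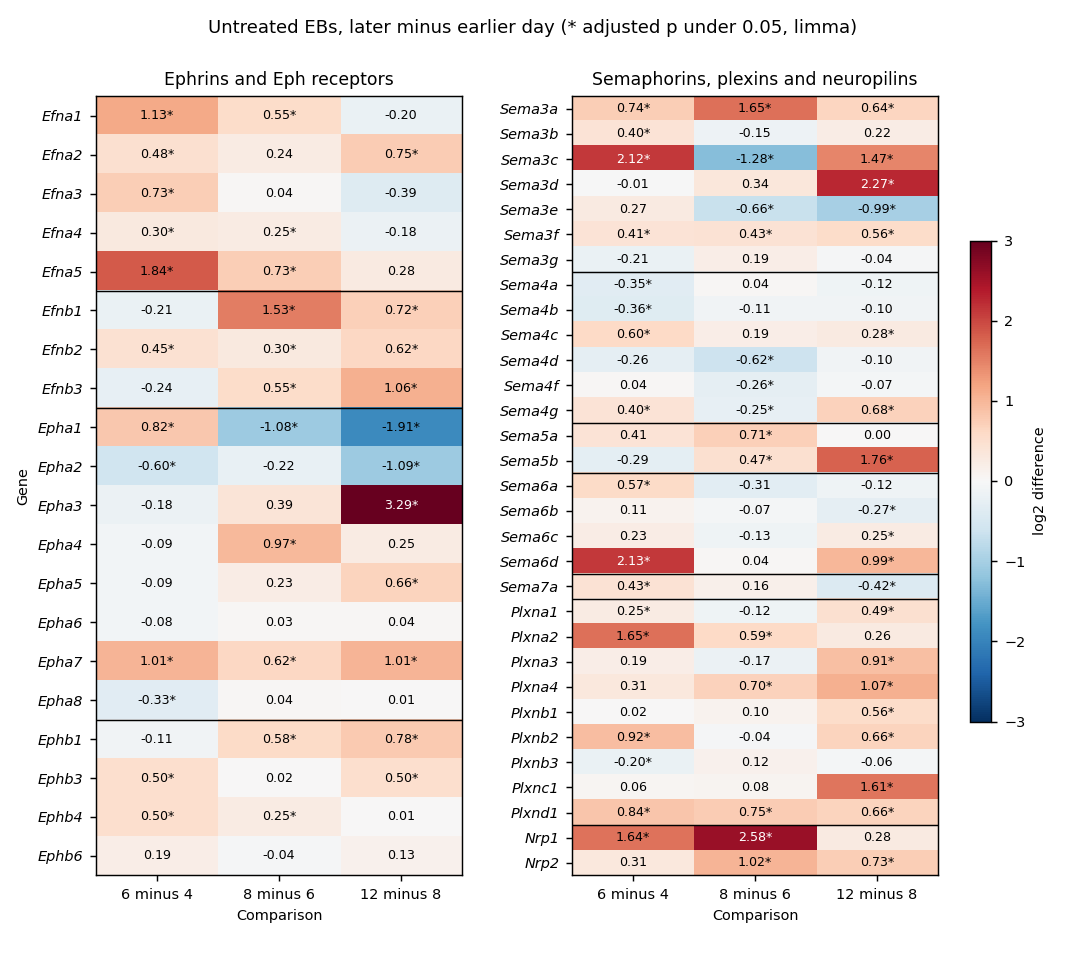
Log2 difference between neighbouring collection days in untreated EBs for the 51 members by family (3 arrays a group), with called members marked. Epha3 rises by 3.29 at the last step, and Epha1 falls between days 6 and 8 and between days 8 and 12 after a rise of 0.82 at the first step.

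Among the ephrins, only B-type members passed the test between treated and untreated EBs. Efnb1, a B-type ephrin that sets tissue boundaries in the face and skeleton, was higher on the 3 later days. On day 6 it had 8.29, 7.77 and 8.18 in untreated and 9.01, 8.59 and 8.79 in treated EBs, a difference of 0.72 ± 0.16 (SE; adjusted p = 0.0159). On day 8 it had 9.78, 9.38 and 9.65 against 10.85, 10.11 and 10.46 (0.87 ± 0.16, adjusted p = 0.00209). On day 12 it had 10.36, 10.31 and 10.30 against 10.91, 10.63 and 10.83 (0.47 ± 0.16, adjusted p = 0.0416). On all 3 days every treated array lay above every untreated one. Leaving out untreated replicate 2 (adjusted p = 0.169) or treated replicate 1 (0.119) or 3 (0.0623) ended the day 6 call, in a range of 6.79e-05 to 0.169 over 14 alternatives. The day 12 call was lost without untreated replicate 1 (0.0709), 2 (0.107) or 3 (0.0981) or treated replicate 1 (0.15) or 3 (0.127), in a range of 0.000421 to 0.15.

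Efnb3, a B-type ephrin of the nervous system midline, was higher on day 8 alone among the days tested. It had 9.12, 8.54 and 9.14 in untreated and 10.13, 9.28 and 9.93 in treated EBs, a difference of 0.84 ± 0.17 (adjusted p = 0.00475). The lowest treated array, replicate 2, lay just above the highest untreated one. Its call was lost without untreated replicate 2 (0.0529) or treated replicate 1 (0.0577), in a range of 3.97e-05 to 0.16. Efnb2, the arterial ephrin, was not called on any day. Of the A-type ephrins, the nearest was Efna3 on day 6, at 10.46 ± 0.34 in untreated and 11.18 ± 0.18 in treated EBs (0.72 ± 0.20, adjusted p = 0.0644). It passed with the replicate block (0.0147), with the day 6 arrays alone (0.0443), with array weights (0.00515) and without untreated replicate 1 (0.0277), in a range of 0.00515 to 0.431. On day 12 the replicate block also called Efna3 (0.44, adjusted p = 0.0476 against 0.133 without the block) and Efna2 (-0.31, 0.0305 against 0.0768).

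Of the 12 Eph receptors, 1 was higher on day 6 (1.26% of all genes), 2 were lower on day 8 (4.08%) and 1 was lower on day 12 (10.4%). The day 12 count is 8.3% of the receptors, so it did not exceed the share over all genes. Epha4, which takes both ephrin types and guides motor axons, had 9.45, 8.92 and 9.36 in untreated and 9.83, 9.97 and 9.85 in treated EBs on day 6 (0.65 ± 0.11, adjusted p = 0.00259). All 3 treated arrays lay close together and above the untreated ones, and the call held in all 14 alternatives. On days 8 and 12 its differences were not called.

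On day 8, Epha1 had 8.77, 9.58 and 9.47 in untreated and 7.76, 9.27 and 8.22 in treated EBs (-0.86 ± 0.26, adjusted p = 0.0403). The groups overlapped, because treated replicate 2 lay above untreated replicate 1. Its call was lost without untreated replicate 2 (0.216) or 3 (0.118) or treated replicate 1 (0.322) or 3 (0.163), and with an intensity trend and robust prior (0.0651), in a range of 0.000145 to 0.322. Epha7, a receptor of the neural plate and cortex, was at 10.54 ± 0.37 in untreated and 10.03 ± 0.28 in treated EBs (-0.51 ± 0.15, adjusted p = 0.031). These groups overlapped too, and the same-numbered difference of replicate 1 was 0.18, against the direction of the other two. The Epha7 call was lost without untreated replicate 2 (0.228) or 3 (0.1) or treated replicate 2 (0.0929) or 3 (0.0975), in a range of 0.00108 to 0.228. The replicate block added Epha2 on day 8 (-0.41, adjusted p = 0.0194 against 0.0557). The neural progenitor markers, 7 of 12 of them lower on this day, had a mean of 9.04 to 9.30 on untreated and 8.49 to 8.86 on treated arrays. The epithelium markers, 3 of 9 of them lower, had 10.70 to 10.85 against 10.58 to 10.75. The pluripotent markers, 2 of 10 of them lower, had 10.39 to 10.65 against 9.48 to 10.69. The part of any of these cell types in the receptor differences was not tested.

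On day 12, Ephb1, a receptor of retinal and cortical axons, had 8.40, 8.64 and 8.39 in untreated and 7.82, 8.05 and 7.98 in treated EBs (-0.53 ± 0.10, adjusted p = 0.000936). Every treated array lay below every untreated one, and the call held in all 13 alternatives that kept the gene. Over these the difference ran from -0.58 to -0.33. The neuron markers given above were lower in the same arrays. Epha3, the member that rose most from day 8, was at 9.55 ± 0.30 in untreated and 10.11 ± 0.70 in treated EBs on day 12 (0.56 ± 0.22, adjusted p = 0.0779). Its groups overlapped, and it passed with the replicate block (0.00317), with array weights (0.00652) and without treated replicate 2 (9.75e-05), in a range of 9.75e-05 to 0.406.

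Class 3 semaphorins are secreted and are mostly ligands of neuropilins and A-type plexins. Without the replicate block, 0 of 7 were called lower on day 6, 3 on day 8 and 1 on day 12, and they were called higher on no day. Of all genes, 0.577%, 4.08% and 10.4% were lower on these days, and the day 12 count is 14.3% of the 7. Sema3a, a repellent of sensory and sympathetic axons, had 8.68, 9.41 and 9.14 in untreated and 7.89, 8.13 and 8.04 in treated EBs on day 8 (-1.06 ± 0.21, adjusted p = 0.00387). The treated arrays were tightly grouped below all untreated ones. Left-out single arrays did not end this call.

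Sema3c had 7.73, 8.53 and 8.03 against 7.05, 7.46 and 6.85 on day 8 (-0.98 ± 0.20, adjusted p = 0.00508). The groups did not overlap, and the call was lost without untreated replicate 2 (0.055), in a range of 3.55e-05 to 0.132. Sema3e, the Plxnd1 ligand, had 9.02, 9.79 and 9.34 against 8.24, 8.99 and 8.36 (-0.86 ± 0.21, adjusted p = 0.0139). Treated replicate 2 lay just below the lowest untreated array. The Sema3e call was lost without untreated replicate 2 (0.125) or treated replicate 1 (0.123) or 3 (0.0796), in a range of 0.000219 to 0.158.

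Sema3d, which acts on endothelial and neural crest cells, was the member with the smallest p on day 12. It had 8.63, 9.16 and 8.99 in untreated and 7.39, 8.09 and 7.72 in treated EBs (-1.19 ± 0.13, adjusted p = 3.21e-06), a level 2.29-fold lower. No treated array reached an untreated one, and the call held in all 13 alternatives that kept the gene. The replicate block added Sema3a (0.49, adjusted p = 0.0395 against 0.328) and Sema3c (-0.51, 0.0386 against 0.274) on day 6, and Sema3d (-0.29, 0.0278 against 0.178) on day 8. On day 12 it added Sema3a (0.37, 0.04 against 0.249) and Sema3c (-0.46, 0.0159 against 0.127). Sema3b, Sema3f and Sema3g were called on no day.

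**Figure D3:**
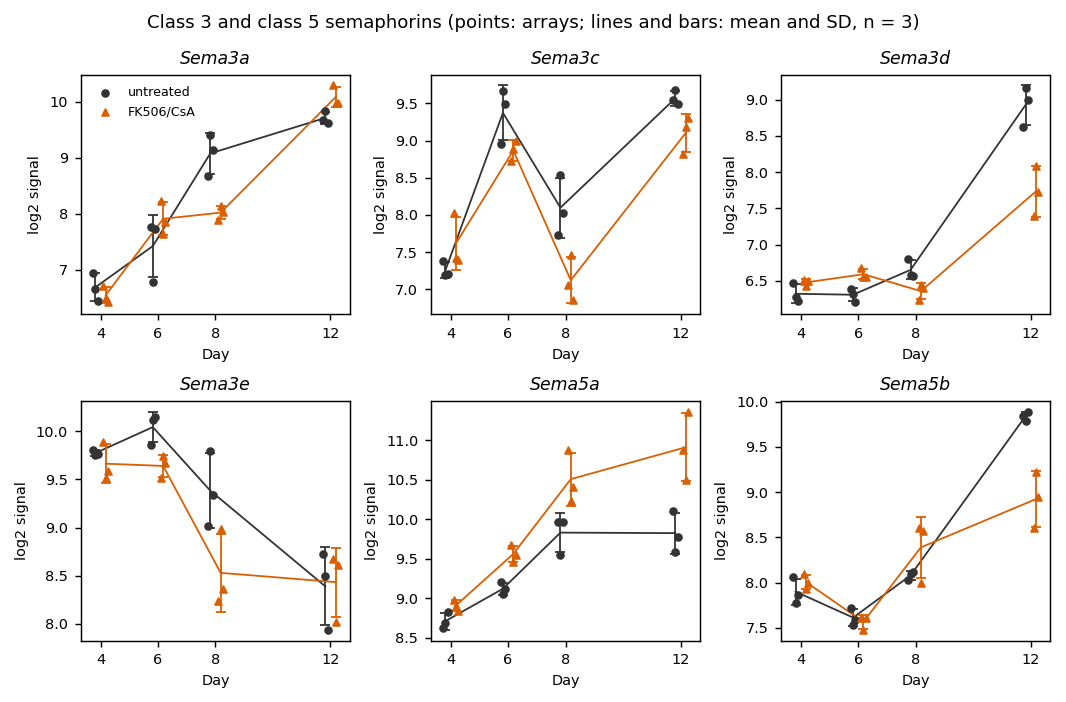
Log2 signal of 6 semaphorins on each array by day of collection, untreated and treated, with a line through the group means of 3 arrays. Treated arrays lie below untreated ones for Sema3a, Sema3c and Sema3e on day 8 and for Sema3d and Sema5b on day 12, and above them for Sema5a on days 8 and 12.

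The 2 class 5 semaphorins, membrane-bound proteins that can attract or repel axons, went opposite ways on day 12. Sema5a had 9.97, 9.55 and 9.97 in untreated and 10.88, 10.23 and 10.41 in treated EBs on day 8 (0.68 ± 0.17, adjusted p = 0.0174), and 10.10, 9.59 and 9.78 against 10.87, 10.50 and 11.36 on day 12 (1.09 ± 0.17, adjusted p = 0.000139). The groups did not overlap on either day. The day 8 call was lost without untreated replicate 2 (0.138) or treated replicate 1 (0.168), in a range of 0.00178 to 0.168, and the day 12 call held in all 14 alternatives. Sema5b had 9.84, 9.79 and 9.89 against 8.60, 9.22 and 8.95 on day 12 (-0.92 ± 0.13, adjusted p = 5.16e-05). The untreated arrays agreed closely, all treated ones lay below them, and this call held in all 14 alternatives.

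Among class 6 semaphorins, which bind A-type plexins, Sema6a was lower on days 8 and 12. It had 11.21, 11.87 and 11.67 in untreated and 10.46, 11.40 and 10.79 in treated EBs on day 8 (-0.70 ± 0.19, adjusted p = 0.0254). Treated replicate 2 exceeded untreated replicate 1, so the groups overlapped. On day 12 it had 11.46, 11.47 and 11.44 against 10.72, 10.87 and 10.76 (-0.67 ± 0.19, adjusted p = 0.0165), with no overlap. The day 8 call was lost without untreated replicate 2 (0.174) or 3 (0.0758) or treated replicate 1 (0.232) or 3 (0.105), in a range of 6.34e-05 to 0.232. The day 12 call was lost without untreated replicate 2 (0.0505) or treated replicate 1 (0.0615) or 3 (0.0583), in a range of 4.35e-05 to 0.0615.

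Sema6b differed by less on day 8, at 8.54 ± 0.03 in untreated and 8.27 ± 0.05 in treated EBs (-0.27 ± 0.07, adjusted p = 0.0278). Its call was lost without untreated replicate 2 (0.0914) or 3 (0.0797) or treated replicate 1 (0.164) or 3 (0.0862) and with centring on the median (0.068), in a range of 0.00649 to 0.164. Sema6d was at 9.11 ± 0.18 and 9.71 ± 0.50 on day 8 (0.60 ± 0.19, adjusted p = 0.0519), with overlap. It passed with the replicate block (0.0352), array weights (0.00211), median centring (0.0368), the filter on level (0.0408) and without treated replicate 2 (0.000665), in a range of 0.000665 to 0.296. The block also called Sema6a on day 6 (-0.46, 0.00596 against 0.31).

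Of 6 class 4 semaphorins, which bind B-type plexins, Sema4d was lower on day 8, at 8.95 ± 0.24 in untreated and 8.31 ± 0.38 in treated EBs (-0.64 ± 0.14, adjusted p = 0.00555). The groups overlapped by 1 array, treated replicate 2. Its call was lost without untreated replicate 2 (0.0566) or treated replicate 1 (0.0675), in a range of 1.71e-05 to 0.172. Sema4g was lower on day 12, at 8.73 ± 0.02 against 8.45 ± 0.11 (-0.28 ± 0.09, adjusted p = 0.0391). That call was lost without untreated replicate 1 (0.0826), 2 (0.0804) or 3 (0.0974) or treated replicate 2 (0.105) or 3 (0.15), with quantile normalization (0.0819) and with median centring (0.0625), in a range of 0.0159 to 0.15. The replicate block added Sema4d on day 6 (-0.45, 0.00798 against 0.0996) and on day 12 (-0.32, 0.0146 against 0.11). Sema7a, the lipid-anchored semaphorin, had differences between -0.13 and 0.11 over the 4 days.

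Both neuropilins, which bind most class 3 ligands, were higher on day 6. Nrp1 had 8.92, 7.39 and 8.59 in untreated and 10.75, 9.56 and 10.34 in treated EBs (1.92 ± 0.34, adjusted p = 0.00311), a level 3.77-fold higher. The lowest treated array lay above the highest untreated one although each group was spread over more than 1 log2 unit, and the call held in all 14 alternatives. Lateral plate markers were higher in the same arrays, as given above.

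On day 8 Nrp1 had 11.57, 10.15 and 10.90 in untreated and 12.20, 11.39 and 11.87 in treated EBs. The groups overlapped, and the difference of 0.94 ± 0.34 was not called (adjusted p = 0.0856). Within replicate numbers it was 0.62, 1.24 and 0.97, and with the replicate block the adjusted p was 0.000148. It also passed with array weights (0.0139), without untreated replicate 1 (0.0219) and with treated replicate 2 left out (0.0316), in a range of 0.000148 to 0.424. On day 12, after the drugs had been removed, Nrp1 had 11.37, 11.01 and 11.10 against 12.39, 11.96 and 12.29 (1.06 ± 0.34, adjusted p = 0.0337), with no overlap. That call was lost without untreated replicate 2 (0.112) or 3 (0.0843) or treated replicate 1 (0.114) or 3 (0.108) and with an intensity trend and robust prior (0.0682), in a range of 2.86e-05 to 0.114.

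Nrp2 had 9.08, 8.46 and 9.15 in untreated and 9.80, 9.42 and 9.62 in treated EBs on day 6 (0.71 ± 0.17, adjusted p = 0.0266). On day 8 it had 10.03, 9.75 and 9.99 against 11.07, 10.29 and 10.74 (0.77 ± 0.17, adjusted p = 0.00691). The treated arrays lay above the untreated ones on both days. The day 6 call was lost without untreated replicate 2 (0.261) or treated replicate 1 (0.155) or 3 (0.094) and with the day 6 arrays alone (0.0603), in a range of 0.00125 to 0.261. The day 8 call was lost without untreated replicate 2 (0.0577) or treated replicate 1 (0.0796), in a range of 0.000231 to 0.141. On day 12 Nrp2 was not called (0.32, adjusted p = 0.223), and passed with the replicate block (0.0482). Endothelial cells are known to make both neuropilins, and their markers had a mean of 7.49 to 7.64 on untreated and 7.52 to 7.63 on treated day 6 arrays, and of 7.77 to 8.66 against 8.37 to 9.33 on day 8.

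Plxna4, an A-type plexin that pairs with neuropilins, was higher on all 3 later days. On day 6 it had 8.26, 7.75 and 8.07 in untreated and 9.71, 8.98 and 9.16 in treated EBs (1.26 ± 0.26, adjusted p = 0.0117). On day 8 it had 9.16, 8.17 and 8.83 against 10.34, 9.13 and 9.68 (0.99 ± 0.26, adjusted p = 0.0205). On day 12 it had 9.90, 9.61 and 9.85 against 10.96, 10.39 and 10.81 (0.93 ± 0.26, adjusted p = 0.0148). The groups overlapped on day 8 and not on days 6 and 12. The day 6 call was lost without untreated replicate 2 (0.107) or treated replicate 1 (0.102), in a range of 1.60e-05 to 0.107. The day 8 call was lost without untreated replicate 2 (0.171) or treated replicate 1 (0.199) or 3 (0.0688), in a range of 5.34e-05 to 0.199, and the day 12 call without untreated replicate 2 (0.0676) or treated replicate 1 (0.0778) or 3 (0.0619), in a range of 4.35e-05 to 0.0778.

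**Figure D4:**
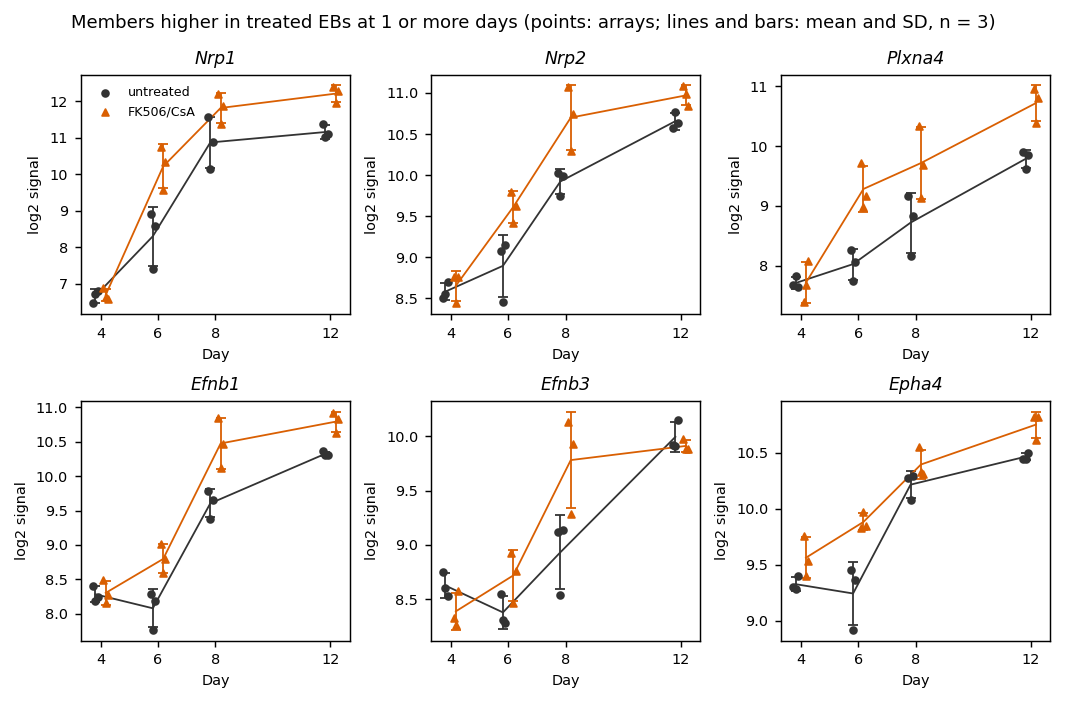
Log2 signal of Nrp1, Nrp2, Plxna4, Efnb1, Efnb3 and Epha4 on each array by day of collection, untreated and treated, with a line through the group means of 3 arrays. No gene shown is called on day 4, where the treated arrays of Epha4 (9.40 to 9.76) lie at or above the untreated ones (9.28 to 9.40). On day 6 the treated arrays of Nrp1 (9.56 to 10.75) lie above the untreated ones (7.39 to 8.92).

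The other plexins that passed were lower, and on day 12. Plxnb1, the receptor of Sema4d, had 10.59, 10.73 and 10.51 in untreated and 9.79, 10.19 and 10.05 in treated EBs (-0.60 ± 0.09, adjusted p = 0.000122). Plxnc1 had 9.25, 9.41 and 9.38 against 8.08, 9.03 and 8.35 (-0.86 ± 0.16, adjusted p = 0.00058). Neither gene's groups overlapped, and both calls held in all 14 alternatives, although treated replicate 2 of Plxnc1 lay far above the other two. Plxna3, an A-type plexin of neurons, was at 10.01 ± 0.04 against 9.72 ± 0.06 (-0.29 ± 0.10, adjusted p = 0.0375). Its call was lost without any 1 of the 6 day 12 arrays: untreated replicate 1 (0.103), 2 (0.0805) or 3 (0.0703), or treated replicate 1 (0.0568), 2 (0.0963) or 3 (0.103), in a range of 0.0164 to 0.103.

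Plxna2 on day 6 was at 9.13 ± 0.56 in untreated and 9.75 ± 0.07 in treated EBs (0.61 ± 0.18, adjusted p = 0.0957), and passed with array weights (0.0348) and without untreated replicate 1 (0.0309), in a range of 0.0309 to 0.592. Plxnd1, the vascular receptor of Sema3e, was at 9.99 ± 0.34 and 10.51 ± 0.36 on day 8 (0.52 ± 0.17, adjusted p = 0.0599), with overlap. It passed with the replicate block (0.00316), array weights (0.00101), median centring (0.0387), the filter on level (0.0467), without untreated replicate 1 (0.0231) and with treated replicate 2 left out (0.00357), in a range of 0.00101 to 0.35. The block also called Plxnc1 on day 8 (-0.44, 0.0387 against 0.087) and Plxnb2 on day 12 (0.29, 0.0483 against 0.071).

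**Figure D5:**
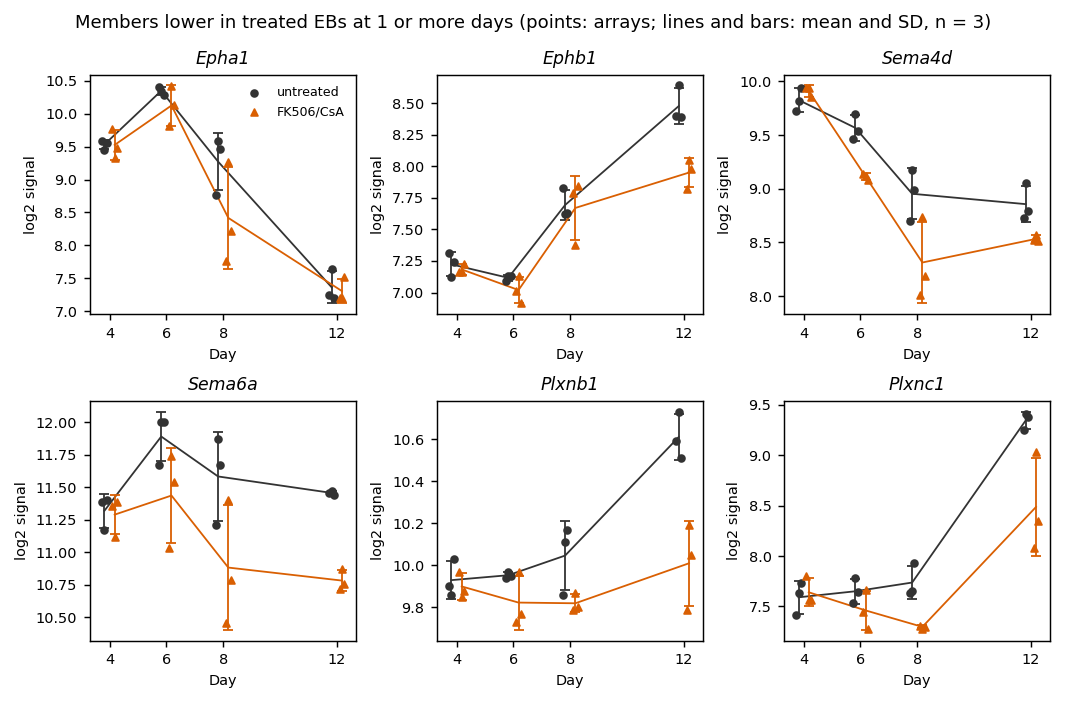
Log2 signal of Epha1, Ephb1, Sema4d, Sema6a, Plxnb1 and Plxnc1 on each array by day of collection, untreated and treated, with a line through the group means of 3 arrays. For Ephb1, Sema6a, Plxnb1 and Plxnc1 all treated arrays of day 12 lie below all untreated ones, while Epha1, Sema4d and Sema6a overlap on day 8.

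Whether the difference with treatment itself changed between neighbouring days was tested as an interaction in limma. From day 4 to day 6, 0 of 51 members passed (0.0953% of all genes), with 11 at an unadjusted p under 0.05. With the replicate block 4 passed: Nrp1 (1.88, adjusted p = 7.23e-05), Plxna4 (1.25, 0.00133), Efnb1 (0.70, 0.00507) and Sema3c (-0.86, 0.0379), against 0.161, 0.275, 0.334 and 0.368 without it. The check of replicate numbers did not pair the samples on day 4, so the block has no backing for that day of the comparison.

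From day 6 to day 8, 1 member passed (0.401% of all genes). Sema3a had 7.77, 6.78 and 7.72 in untreated and 8.23, 7.64 and 7.86 in treated EBs on day 6, where the groups overlapped and the difference was 0.49, and its day 8 difference was -1.06. The change was -1.54 ± 0.30 (adjusted p = 0.0223). It was lost without untreated day 6 replicate 2 (0.0761), treated day 6 replicate 1 (0.0807) or 3 (0.0581), untreated day 8 replicate 2 (0.0613) or 3 (0.0773), or treated day 8 replicate 1 (0.0783) or 3 (0.0692), and with the compared groups alone (0.168), in a range of 0.00021 to 0.168. The count of 1 became 5 without treated day 8 replicate 2. With the replicate block Efna3 (-0.98, 0.0199 against 0.126), Nrp1 (-0.97, 0.00614 against 0.466) and Sema3d (-0.57, 0.0137 against 0.212) passed as well.

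From day 8 to day 12, across the end of drug treatment, 6 members passed (5.2% of all genes). Sema3a went back up, with 9.68, 9.83 and 9.62 in untreated and 10.29, 9.97 and 9.98 in treated EBs on day 12. That day's difference of 0.37 was not called, and the change of 1.43 ± 0.30 (adjusted p = 0.0075) held in all 20 alternatives. This change and the one from day 6 to day 8 share the day 8 arrays, so they are not independent. Sema5b moved from 0.31 to -0.92, a change of -1.23 ± 0.19 (adjusted p = 0.000884) that also held in all 20. Sema3d moved from -0.29 to -1.19 (-0.90 ± 0.19, adjusted p = 0.00823), a call lost with the compared groups alone (0.0801), in a range of 0.000339 to 0.0801. Efnb3 moved from 0.84 to -0.08, with 9.92, 9.91 and 10.15 in untreated and 9.97, 9.88 and 9.88 in treated EBs on day 12 (-0.93 ± 0.25, adjusted p = 0.0306). The groups overlapped on day 12.

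The Efnb3 change was lost without untreated day 8 replicate 2 (0.0948) or treated day 8 replicate 1 (0.089) or 3 (0.0853). It was also lost without untreated day 12 replicate 3 (0.0712) or treated day 12 replicate 3 (0.074). With the compared groups alone it was lost too (0.112), in a range of 0.000776 to 0.112. Epha8, a receptor of the midbrain, moved from -0.28 to 0.23 (0.51 ± 0.13, adjusted p = 0.0303), though neither day was called. Its change was lost without untreated day 8 replicate 1 (0.0639) or 2 (0.087), treated day 8 replicate 1 (0.0727), untreated day 12 replicate 2 (0.0746) or 3 (0.0568), or treated day 12 replicate 3 (0.0919), with quantile normalization (0.0681) and with the compared groups alone (0.072), in a range of 0.0154 to 0.0919. Ephb1 moved from -0.03 to -0.53 (-0.50 ± 0.14, adjusted p = 0.0469). That change was lost in 12 of 19 alternatives: with its probe sets averaged (0.359), with an intensity trend and robust prior (0.0526), with the compared groups alone (0.149), and without untreated day 8 replicate 2 (0.118) or 3 (0.0765), treated day 8 replicate 1 (0.119) or 3 (0.14), untreated day 12 replicate 1 (0.0515), 2 (0.131) or 3 (0.0558), or treated day 12 replicate 1 (0.11) or 3 (0.09). The 6 calls became 3 without untreated day 8 replicate 2, untreated day 12 replicate 3 or treated day 12 replicate 3, and 11 without treated day 8 replicate 2. With the replicate block Efna3 (0.71, 0.0498 against 0.141), Efnb1 (-0.40, 0.0292 against 0.29), Epha1 (0.80, 0.0412 against 0.196), Epha2 (0.59, 0.0244 against 0.0677) and Sema3e (0.90, 0.0124 against 0.0799) passed too.

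Genes that carry the signals inside the cell or share the receptors were counted in 3 lists. On day 6, when 1.84% of all genes were called, 0 of 28 measured genes of Eph and ephrin signalling were. Of 30 genes of semaphorin and plexin signalling and its co-receptors, 1 was higher: L1cam, an adhesion molecule that pairs with Nrp1 (1.26 ± 0.17, adjusted p = 0.000437). Of 8 VEGF ligands and receptors, 1 was higher: Kdr, the main VEGF-A receptor (1.82 ± 0.28, adjusted p = 0.00112). Kdr was also the 1 of 10 endothelial markers that was higher on day 6, and the median difference of that list was -0.23.

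On day 8, when 4.86% of all genes were higher and 4.08% lower, the semaphorin list had 5 of 30 members higher and 4 lower. Nrcam, a co-receptor adhesion molecule of neurons, was lower (-1.05 ± 0.23, adjusted p = 0.00709), as was Dpysl5, a collapsin response mediator that passes semaphorin signals to the cytoskeleton (-0.77 ± 0.18, adjusted p = 0.0102). Itgb1, an integrin subunit, was higher (0.46 ± 0.09, adjusted p = 0.00523), as was Dpysl2 (0.43 ± 0.10, adjusted p = 0.0113). Of the 8 VEGF ligands and receptors 2 were higher, both of them ligands: Pgf (0.87 ± 0.15, adjusted p = 0.00156) and Vegfc (0.82 ± 0.19, adjusted p = 0.00981). In the Eph list 1 of 28 genes was higher, Kalrn (0.52 ± 0.14, adjusted p = 0.0264), and 0 were lower. That count of higher genes did not exceed the share over all genes. Without untreated replicate 2 or treated replicate 1 the adjusted p was 0.0705 and 0.0695 for Nrcam (range 2.65e-05 to 0.147), 0.0648 and 0.112 for Dpysl5 (0.000149 to 0.164), 0.0509 and 0.0637 for Itgb1 (5.77e-05 to 0.154), 0.0947 and 0.124 for Dpysl2 (0.000201 to 0.172), 0.0527 and 0.107 for Vegfc (1.89e-05 to 0.165) and 0.19 and 0.232 for Kalrn (0.000153 to 0.232). Without treated replicate 3 the calls of Dpysl2 (0.0639), Vegfc (0.0735) and Kalrn (0.136) were lost as well.

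On day 12, when 7.49% of all genes were higher and 10.4% lower, the semaphorin list had 2 of 30 genes higher and 7 lower, and the Eph list 2 of 28 higher and 4 lower. Both counts of higher genes, and the count of lower genes in the Eph list, lay near the share over all genes. The lower ones included Nrcam (-1.73 ± 0.23, adjusted p = 2.14e-05), Dpysl5 (-1.04 ± 0.18, 0.000291), Crmp1 (-1.02 ± 0.13, 1.33e-05) and Dpysl4 (-1.0 ± 0.12, 5.48e-06), all but Nrcam from 1 family of cytoskeletal mediators known from growing axons. In the Eph list Chn1, a Rac regulator downstream of Epha4, was lower (-0.59 ± 0.08, adjusted p = 3.65e-05), with Grip1 (-0.46 ± 0.09, 0.000929), a scaffold for B-type ephrins, and Itsn1 (-0.37 ± 0.06, 0.00037), while the transcription factor Stat3 was higher (0.56 ± 0.13, 0.00297). Kdr was again higher (1.19 ± 0.28, adjusted p = 0.00514). These calls of day 12 and those of L1cam and Kdr on day 6 held in all 14 alternatives. All 12 neuron markers were lower in the same day 12 arrays, and the part of neurons in these differences was not tested.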

How the data were processed

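RNA of 24 EB samples was hybridised to Affymetrix Mouse Gene ST arrays. The deposited table holds log2 values that the authors made with Affymetrix Expression Console by RMA, a background correction, normalization and summary per probe set, per the submitters' processing notes; the log2 scale was read from the range of the values. Software versions, probe library and build: not given in the sources used here. Probe sets were named through GEO's platform annotation: of 35556 probe sets, 21789 had 1 gene symbol, 1621 several and 12146 were not listed. Arrays have no read depth, no detection calls were used, and precision is limited by the number of arrays.

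From these values limma 3.58.1 (R 4.3.3) fitted the 24 arrays with a mean for each group, a shared spread (16 residual degrees of freedom) and no covariate, with eBayes and Benjamini-Hochberg adjustment per comparison over 19938 genes. ± after a difference is its SE. The labels call the replicates biological and the design names 3 independent experiments. Named are the members called in a treatment comparison or its change between days, the 4 largest called rises and falls per untreated step, and up to 4 called genes per pathway list; values of every array are given for at most 10 called members per comparison with a difference of 0.5 or more. The members and lists were chosen with earlier results of these data known, so a list supports nothing independently. On simulated data for the day 8 comparison (19938 genes), the fit recovered 86% of changes of 0.5 and 98% of changes of 1.0. The simulated noise was independent between arrays, with 1 spread per gene for all arrays. The real day 8 arrays were uneven, with array weights from 0.37 to 3. These shares check the fit and do not tell how many real changes were found on day 8.

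Whether a replicate number pairs samples was checked by the correlation of deviations from group means: same-numbered pairs had -0.014, 0.191 and -0.053 on day 4, 0.297, 0.138 and 0.21 on day 6, 0.479, 0.553 and 0.107 on day 8 and 0.118, 0.341 and 0.253 on day 12. Different-numbered pairs reached 0.025 on day 6, 0.126 on day 8 and 0.264 on day 12. On days 8 and 12 this exceeded the weakest same-numbered pair (0.107 and 0.118), so pairing is less sure there. The numbers, from the sample titles, were taken to pair the samples on days 6, 8 and 12. A fit with the replicate block within day is given where it changed a call. Other alternatives were quantile normalization, centring on the median, leaving out genes below the 40th percentile of level, the mean of probe sets, an intensity trend with a robust prior, array weights, the compared groups alone, leaving out each array and, beside these, a 2-fold threshold, which is not among the alternatives counted per gene in the text. Promoter windows are RefSeq's (GRCm38.p6).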

Additional observations from a re-analysis of the deposited data

Results flagged for a closer look

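7 results were singled out because the difference between treated and untreated EBs itself changed between neighbouring days by limma's interaction test (Benjamini-Hochberg over 19938 genes). From day 6 to day 8 this was Sema3a (-1.54, adjusted p = 0.0223). From day 8 to day 12 these were Sema3a (1.43, adjusted p = 0.0075), Epha8 (0.51, 0.0303), Efnb3 (-0.93, 0.0306), Ephb1 (-0.50, 0.0469), Sema3d (-0.90, 0.00823) and Sema5b (-1.23, 0.000884). Of these, Sema3a passed at both steps, down and then up. With the replicate block Efna3 (-0.98, adjusted p = 0.0199, then 0.71, 0.0498) and Sema3d (-0.57, 0.0137, then -0.90, 0.000377) passed at both steps as well. Both steps use the same day 8 arrays, with opposite sign, so passing at both is not independent support.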

How the results depend on the processing

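Of 79 named differences that passed, 42 passed in every alternative other than the 2-fold threshold, 37 were lost in at least 1, and 0 changed direction. Under the 2-fold threshold, day 6 had 2 members higher, day 8 had 0 higher and 1 lower, day 12 had 2 higher and 1 lower, the untreated steps had 7 rises and 0 falls, 4 and 2, and 8 and 2, and the change from day 8 to day 12 had 2. With array weights, day 6 had 3 lower, day 8 had 11 higher and 14 lower, day 12 had 8 higher, the first untreated step had 8 falls, and the 3 changes of the treatment difference had 7, 7 and 15, while the share of all genes called rose to 6.48%, 25.9% and 23.9% on days 6, 8 and 12. With the compared groups alone, day 6 had 1 lower, day 8 had 0 higher and 0 lower by limma (9 and 13 at an unadjusted p under 0.05), day 12 had 8 higher, and the last 2 changes had 0 (4 at an unadjusted p under 0.05) and 2. With the replicate block, which ended no call, day 6 had 3 lower, day 8 had 8 higher, day 12 had 9 higher, and the changes had 4, 4 and 11; in untreated EBs it changed no call of a named member. Quantile normalization gave 1 lower on day 6 and 7 higher on day 12, the filter on level 3 falls at the first untreated step, and median centring 8, where it moved the median of all genes to -0.118 (and to -0.131 at the last step). Leaving out 1 array gave 2 to 7 higher on day 6, 1 to 10 higher and 1 to 10 lower on day 8, and 1 to 9 higher and 5 to 6 lower on day 12. It gave 3 to 6 falls from day 6 to day 8, and 0 to 1, 0 to 5 and 3 to 11 changes of the treatment difference. Apart from settings whose construction leaves fewer arrays or genes, the cause was not tested. With 3 arrays a group and no detection calls, it is not known which low signals exceed background.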
